A study of Mus musculus with 8 samples.

Results

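Mouse guanylate-binding proteins (GBPs) and immunity-related GTPases (IRGs) are interferon-induced GTPases of cell-autonomous defence. The 10 genes described here were chosen by symbol, out of 24537 genes in the count table, and all of them were found: the GBP genes Gbp2, Gbp3, Gbp5, Gbp6, Gbp7 and Gbp9, and the IRG genes Igtp, Irgm1, Irgm2 and Iigp1. RNA was sequenced from EpCAM-positive cells sorted by FACS out of 8 freshly dissociated pancreatic tumours of FVB/NJ mice, 1 library per tumour, at 44 to 49 days of age. All mice, controls included, carried Pdx1-Cre, a recombinase driven in pancreatic epithelium, and its targets included Trp53f/f and the reporter Rosa26LSL-Luc. Lifr codes for the receptor of leukaemia inhibitory factor, and the 4 tumours labelled KO were Lifr f/f, with both alleles floxed. The 4 labelled WT were of mixed genotype: WT replicates 1 and 2 were f/+, while WT replicates 3 and 4 were +/+.

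Interferons bind receptors on the cell surface and activate transcription factors. Interferon-gamma acts mainly through gamma-activated sites (GAS) in promoters. Type I interferons act mainly through interferon-stimulated response elements (ISRE), bound by a complex that holds STAT2 and IRF9. GBPs are large GTPases related to dynamin that assemble on vacuoles holding pathogens and on bacteria, and several of them promote inflammasome activation. Among the IRGs, Igtp, Irgm1 and Irgm2 are regulators that sit on the cell's own membranes, while Iigp1 is an effector that loads onto the vacuole of the parasite. Macrophages are a cell type in which both families are strongly induced.

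The promoters are shown first because members of both families were called higher in the tumours labelled KO and because the letters of both response elements were found in them. Windows of 300 bases, 250 before to 50 after a RefSeq transcription start (GRCm38.p6, the mm10 assembly), were searched on both strands for the GAS letters TTCNNNGAA and for the ISRE letters, GAAA and GAAA parted by any 2 bases. Windows were matched for 7 of the 10 genes, with 2 of them for Gbp3. Not matched were Gbp6, Gbp9 and Iigp1. All 7 had ISRE letters in a window, and 4 of them (Gbp5, Gbp7, Igtp and Irgm2) had GAS letters as well. In all 32851 promoter windows, 3.44% held the ISRE letters, 8.30% the GAS letters and 0.454% both. The windows of the 4 matched genes with the smallest p in the comparison below are printed 5′ to 3′ along the gene, with both kinds of match in capitals. Igtp is at chr11:58199306-58199605 (plus strand), Gbp7 at chr3:142530086-142530385 (plus), Gbp5 at chr3:142496684-142496983 (plus) and Irgm1 at chr11:48871371-48871670 (minus).
Igtp: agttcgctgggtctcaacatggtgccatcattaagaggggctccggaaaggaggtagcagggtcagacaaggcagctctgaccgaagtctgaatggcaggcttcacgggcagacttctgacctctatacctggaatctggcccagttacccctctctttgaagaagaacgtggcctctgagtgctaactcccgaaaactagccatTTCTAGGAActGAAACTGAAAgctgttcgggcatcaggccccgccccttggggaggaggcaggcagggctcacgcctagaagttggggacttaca
Gbp7: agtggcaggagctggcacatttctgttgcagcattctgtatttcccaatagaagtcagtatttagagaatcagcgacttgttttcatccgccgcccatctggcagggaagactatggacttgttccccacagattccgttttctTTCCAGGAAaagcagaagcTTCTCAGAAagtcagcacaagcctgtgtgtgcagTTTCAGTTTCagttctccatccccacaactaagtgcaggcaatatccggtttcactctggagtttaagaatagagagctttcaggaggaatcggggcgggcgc
Gbp5: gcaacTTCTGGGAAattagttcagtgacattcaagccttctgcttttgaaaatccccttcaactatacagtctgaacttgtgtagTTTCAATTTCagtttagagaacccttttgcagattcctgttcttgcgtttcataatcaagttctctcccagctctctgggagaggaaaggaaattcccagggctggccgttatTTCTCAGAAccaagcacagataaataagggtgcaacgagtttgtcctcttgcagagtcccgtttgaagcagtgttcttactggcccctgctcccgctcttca
Irgm1: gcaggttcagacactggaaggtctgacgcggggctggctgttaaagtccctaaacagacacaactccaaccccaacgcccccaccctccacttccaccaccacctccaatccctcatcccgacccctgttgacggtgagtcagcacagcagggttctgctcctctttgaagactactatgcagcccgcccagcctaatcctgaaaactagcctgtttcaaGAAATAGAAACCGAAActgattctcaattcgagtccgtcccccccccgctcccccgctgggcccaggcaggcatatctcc

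In Igtp the GAS letters ended 37 bases before the start and the ISRE letters began 34 bases before it. Irgm2 held the same pair in the same order, from 75 to 67 and from 64 to 55 bases before its start. Of 6 matched family genes outside the 10, the IRG genes Tgtp1, Tgtp2 and Gm12250 also held both. Gbp2b held ISRE letters alone, and Ifi47, called higher below, and Irgq held neither. In Gbp7 a pair of GAS matches lay upstream of an ISRE match on the opposite strand. Irgm1 and Gbp3 had 2 ISRE matches that overlapped each other and no GAS letters. A match of letters is a description of the window and does not show that a factor binds there.

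**Figure D1:**
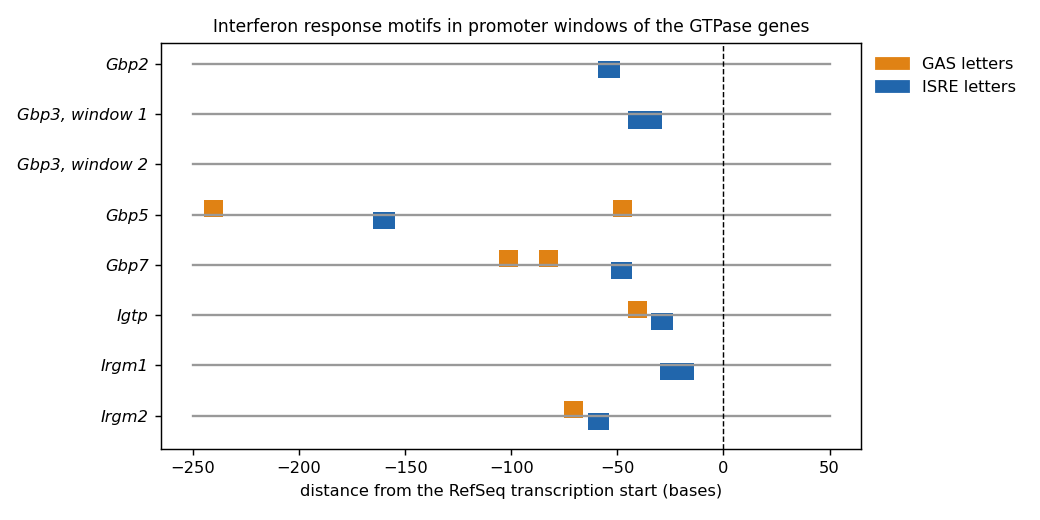
Positions of GAS letters (orange) and ISRE letters (blue) in each promoter window, in bases from the RefSeq transcription start (dashed line). Each of the 7 matched genes holds ISRE letters upstream of its start; the second Gbp3 window holds no match.

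Levels were expressed as CPM, counts scaled to library size, with TMM factors for library composition. Counts summed to between 14938875 and 22698340 per tumour, and each of the 10 genes had between 19 and 3101 counts in each tumour. All 10 passed the filter on low counts and were tested among 14728 genes by edgeR's quasi-likelihood test with Benjamini-Hochberg adjustment, with a call at an adjusted p under 0.05. Lifr itself was at 150 to 220 CPM in the tumours labelled KO and at 71.8 to 126 CPM in those labelled WT. That is higher and not lower (log2 fold change 0.90 ± 0.19, edgeR adjusted p = 0.0121). Counts over all exons do not show whether floxed exons were lost, so the groups are named as labelled and each direction below rests on the labels. The groups also differed in cell markers: the summed level of 12 macrophage markers was 22503 to 29352 CPM in the tumours labelled KO and 8623 to 15501 CPM in those labelled WT, and Epcam, the antigen of the sort, was at 421 ± 57.7 against 775 ± 96.5 CPM (SD, n = 4 each). Tumours were dissected individually, so the spread is between tumours.

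Most of the GTPase genes had higher levels under the KO label. Of the 10, 6 were called higher (Gbp3, Gbp5, Gbp6, Gbp7, Igtp and Irgm1), 0 were called lower and 4 were not called (Gbp2, Gbp9, Irgm2 and Iigp1). Of all tested genes, 21.8% were called and 11.1% were called higher (1630 higher and 1586 lower). With library totals in place of TMM factors, 900 of 4008 called genes were higher, and 3 of the 10 were called beside 27.2% of all tested genes. All 10 had a log2 fold change above 0, as did 51.4% of all tested genes. The median log2 fold change (labelled KO minus labelled WT) was 1.08 for the 10 genes and 0.011 for all tested genes. For 3 of the 10 genes, Gbp5, Gbp7 and Igtp, the groups did not overlap and every KO tumour was the higher, which held for 13.1% of all tested genes. In these bulk libraries more cells that express a gene and more RNA per cell cannot be told apart.

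**Figure D2:**
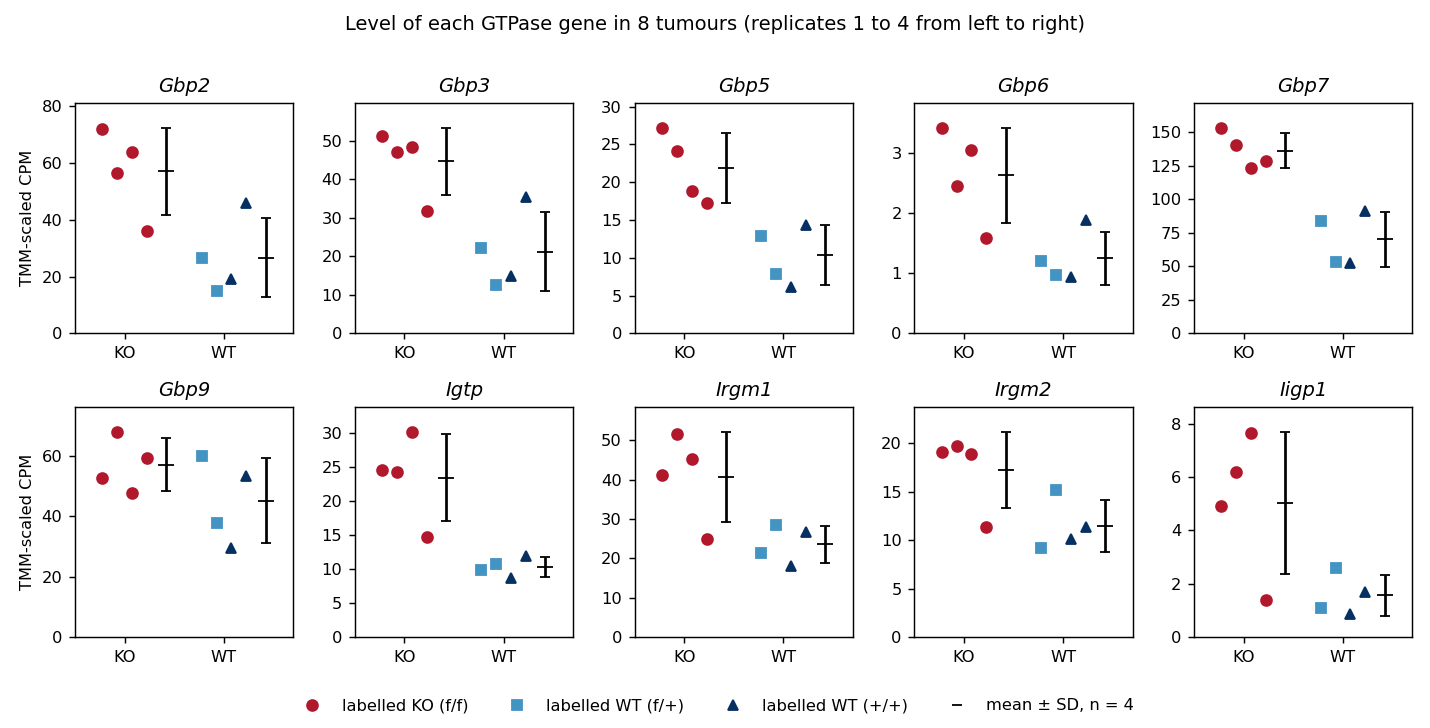
TMM-scaled CPM of each gene in each tumour, replicates 1 to 4 from left to right, with mean and SD (n = 4) beside each group and the Lifr genotype given by colour and shape. Gbp5, Gbp7 and Igtp separate the groups; KO replicate 4 is the lowest of its group for every gene but Gbp7 and Gbp9, and WT replicate 4 is the highest of its group for Gbp2, Gbp3, Gbp5, Gbp6, Gbp7 and Igtp.

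Among the regulators of the IRG family, Igtp (also called Irgm3, a protein of the endoplasmic reticulum) had the smallest p of the 10. It was at 24.6, 24.3, 30.3 and 14.8 CPM in KO replicates 1 to 4 and at 9.90, 10.7, 8.65 and 12.0 CPM in WT replicates 1 to 4. The groups did not overlap, though KO replicate 4 lay near the highest WT tumour. Its log2 fold change was 1.19 ± 0.21 (SE, edgeR adjusted p = 0.00787), or 2.27-fold. Irgm1, known for the control of mycobacteria and for effects on autophagy, was at 41.3, 51.6, 45.3 and 24.9 CPM in the tumours labelled KO. In those labelled WT it was at 21.4, 28.4, 18.2 and 26.6 CPM. Here KO replicate 4 lay below WT replicates 2 and 4, and the other tumours labelled KO were above all controls. The difference was called (log2 fold change 0.78 ± 0.23, edgeR adjusted p = 0.0409).

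Irgm2, the third regulator, was not called. It was at 19.1, 19.7, 18.8 and 11.3 CPM against 9.17, 15.2, 10.1 and 11.3 CPM, with KO replicate 4 at the level of WT replicate 4 and below WT replicate 2. Its log2 fold change was 0.59 with a 95% interval of 0.090 to 1.09 (edgeR adjusted p = 0.0889). Iigp1 (also called Irga6), the effector, had the highest fold change of the 10 and the widest interval, 1.67 (0.46 to 2.89, edgeR adjusted p = 0.0553). It was scarce, at 4.90, 6.20, 7.64 and 1.40 CPM in the tumours labelled KO and 1.09, 2.61, 0.852 and 1.71 CPM in those labelled WT. KO replicate 4 lay below WT replicates 2 and 4, and it had 30 counts where the other tumours labelled KO had 91 to 110.

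Of the GBP genes, 4 lie in a cluster on chromosome 3, within the span from 142496934 (start of Gbp5) to 142638008 (end of Gbp2, mm10). Gbp7 was the most abundant. It was at 154, 140, 123 and 129 CPM in the tumours labelled KO and at 83.6, 53.1, 52.4 and 91.4 CPM in those labelled WT. The groups stood clearly apart, and KO replicate 4 was not low here. The log2 fold change was 0.96 ± 0.19 (edgeR adjusted p = 0.0110). Gbp5, a promoter of NLRP3 inflammasome assembly, was at 27.2, 24.2, 18.8 and 17.3 CPM against 12.9, 7.87, 6.10 and 14.4 CPM. Every tumour labelled KO exceeded every control, and the log2 fold change was 1.09 ± 0.28 (edgeR adjusted p = 0.0274).

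Gbp2, a GBP that lipid modification anchors to membranes, was at 72.1, 56.4, 63.7 and 35.9 CPM in the tumours labelled KO and at 26.6, 14.9, 19.2 and 46.1 CPM in those labelled WT. WT replicate 4 was above KO replicate 4, so the groups overlapped. The log2 fold change of 1.10 ± 0.35 was as large as that of its neighbours and was not called (edgeR adjusted p = 0.0564). Gbp3 had a like pattern, at 51.3, 47.1, 48.5 and 31.8 CPM against 22.1, 12.6, 14.8 and 35.4 CPM. It was called, at 1.08 ± 0.32 (edgeR adjusted p = 0.0410). Mir6381, on the other strand, lies within the span of Gbp2, the only overlap of the 10 genes with another gene of the table.

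On chromosome 5, Gbp6 was rare and Gbp9 was common. Gbp6 was at 3.42, 2.45, 3.06 and 1.59 CPM in the tumours labelled KO and 1.20, 0.978, 0.941 and 1.89 CPM in those labelled WT, from 21 to 69 counts. WT replicate 4 again exceeded KO replicate 4, and the log2 fold change was 1.08 ± 0.33 (edgeR adjusted p = 0.0481). Gbp10 is a close copy of Gbp6 and reads of either could have been counted for the other, so both values are uncertain. Gbp9 was at 52.9, 68.1, 47.9 and 59.5 CPM against 60.1, 37.9, 29.5 and 53.5 CPM. The groups overlapped widely: WT replicates 1 and 4 lay within the range of the tumours labelled KO. Its log2 fold change of 0.34 had a 95% interval of −0.16 to 0.83 (edgeR adjusted p = 0.304).

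**Figure D3:**
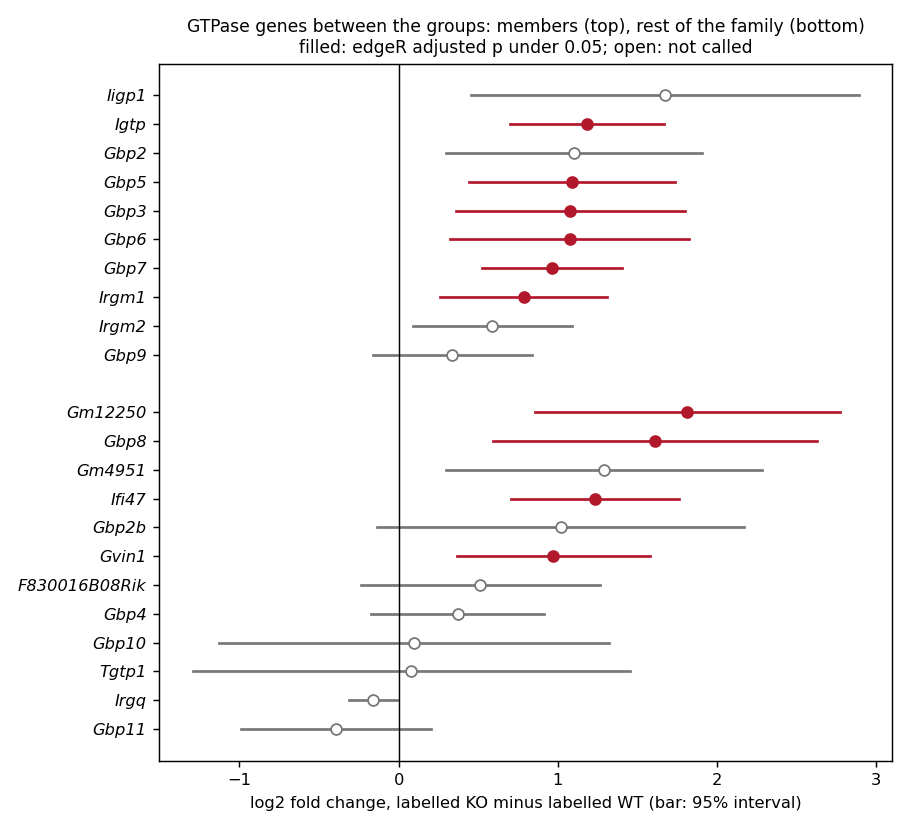
Log2 fold change (labelled KO minus labelled WT, 4 tumours each) of the 10 genes and of the 12 other family genes tested, with 95% intervals; filled points were called by edgeR. The 10 genes range from 0.34 (Gbp9) to 1.67 (Iigp1), and the rest of the family from −0.39 (Gbp11) to 1.81 (Gm12250).

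The calls of Igtp and Gbp7 held when any 1 tumour was left out (edgeR adjusted p of at most 0.0258 and 0.0343). Those of the other 4 did not. Gbp3 and Gbp6 lost theirs without KO replicate 1, 2 or 3 or WT replicate 1, 2 or 3 (edgeR adjusted p up to 0.128, for Gbp6). Irgm1 lost its call without KO replicate 1, 2 or 3 or WT replicate 1, 3 or 4 (up to 0.112), and Gbp5 without KO replicate 1 or 2 or WT replicate 2 (up to 0.0733). Without KO replicate 4 the call count went up to 9 of 10, with Gbp9 the exception, and it was 2 without KO replicate 1 or without KO replicate 2. It was 3 without KO replicate 3, WT replicate 1 or WT replicate 3. The calls over all genes changed too. They were 2980 of 14919 without KO replicate 4, 2296 of 14891 without KO replicate 1 and 1755 of 14962 without KO replicate 2. Without KO replicate 3, WT replicate 1 and WT replicate 3 they were 2409 of 14950, 2383 of 14951 and 2077 of 14841. On all 8 tumours DESeq2 called 9 of the 10, and 26.1% of all genes to which it gave an adjusted p.

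Both control genotypes gave the same direction. In a joint fit of the 3 Lifr genotypes all 10 genes had a log2 fold change above 0 in f/f against f/+ tumours, from 0.22 (Gbp9) to 1.46 (Gbp2), and Gbp7 and Igtp were called (edgeR adjusted p = 0.0439 and 0.0359). Of 15284 genes in that fit, 13.3% were called. Against +/+ tumours all 10 were again above 0, from 0.46 (Gbp9) to 1.98 (Iigp1), with 0 called by edgeR and 6 at an unadjusted p under 0.05, while 6.79% of all genes were called. The f/f tumours are shared by both comparisons. Between f/+ and +/+ tumours 5 of the 10 genes were above 0 and 5 below, from −0.65 (Gbp2) to 0.55 (Iigp1), with 0 called and 0 at an unadjusted p under 0.05 (edgeR). There, 0.00654% of all genes were called. Igtp was at a mean of 10.3 CPM in f/+ and 10.3 CPM in +/+ tumours, against 23.5 CPM in f/f.

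Levels of different genes were compared per kilobase of the counted transcript. In the tumours labelled KO the order by mean was Gbp7 (24.4 CPM per kilobase, range 22.1 to 27.5), Gbp2 (23.4 ± 6.34), Irgm1 (18.3 ± 5.14), Gbp3 (17.0 ± 3.34), Gbp9 (15.8 ± 2.42), Igtp (11.6 ± 3.18), Gbp5 (7.28 ± 1.54), Irgm2 (4.91 ± 1.13), Iigp1 (1.62 ± 0.86) and Gbp6 (0.611 ± 0.19; SD, n = 4). The ranges over tumours did not overlap from Gbp5 to Irgm2 and from Irgm2 to Iigp1, and those of all other neighbours did. In the tumours labelled WT Gbp9 (12.5 ± 3.87 CPM per kilobase) stood next to Gbp7 (12.5 ± 3.63) at the top. There only the step from Irgm2 (3.26 ± 0.75) to Iigp1 (0.502 ± 0.25) had no overlap. The deposited FPKM values gave the same order of the 10 genes in both groups.

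Within the groups, genes of the same family varied together more closely than genes of different families, a contrast that was not tested and that was smaller without WT replicate 2. Each gene's log2 CPM was taken as its deviation from the mean of its own group, and pairs of genes were compared over the 8 tumours. The WT group pools f/+ and +/+ tumours, so its deviations also hold any difference between those genotypes. These correlations are descriptions: the genes share libraries and depth, and the deviations share the group means. The 6 pairs of IRG genes had a Pearson r of 0.76 to 0.96 (median 0.91), although Iigp1 is on chromosome 18 and the others on chromosome 11. The 15 pairs of GBP genes had r of 0.26 to 0.99 (median 0.81), highest for the neighbours Gbp2 and Gbp3 (0.99). Between the families the 24 pairs had a median r of 0.29, from −0.22 (Gbp9 with Irgm2) to 0.82 (Gbp6 with Igtp). The value between the families rested on single tumours: its median was 0.62 without WT replicate 2 (range −0.088 to 0.89), 0.14 without WT replicate 3 and 0.082 without KO replicate 4. Within the families the medians without any 1 tumour stayed at 0.73 or more for IRG genes and 0.76 or more for GBP genes. Without both KO replicate 4 and WT replicate 4 the medians were 0.78 within the IRG genes, 0.75 within the GBP genes and −0.23 between them.

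**Figure D4:**
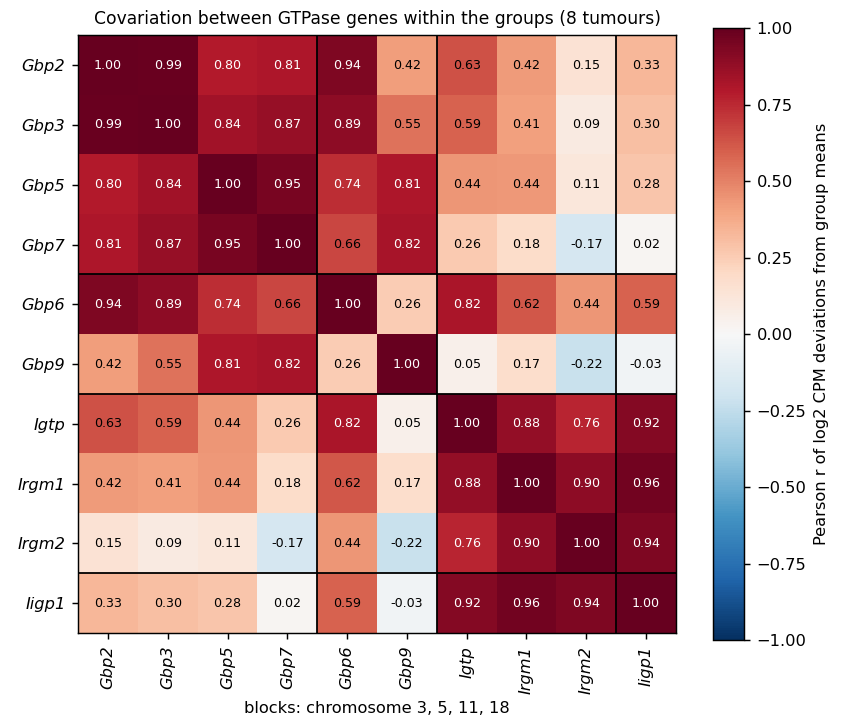
Pearson r between genes of log2 CPM deviations from the group mean over 8 tumours; lines part the chromosomes. The block of Igtp, Irgm1, Irgm2 and Iigp1 has r of 0.76 or more and the chromosome 3 block 0.80 or more. Every value between these blocks is lower, the highest being Igtp with Gbp2 at 0.63.

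As log2 deviations from the group mean, KO replicate 4 was at −1.54 for Iigp1 and −0.66 for Irgm1, but at −0.081 for Gbp7 and 0.071 for Gbp9. WT replicate 2 was at 0.82 for Iigp1 and 0.43 for Irgm2, and at −0.71 for Gbp2 and −0.63 for Gbp3. WT replicate 4 was at 0.92 for Gbp2 and 0.85 for Gbp3, and at 0.011 for Irgm2. WT replicate 2 was thus the highest of its group for Irgm1, Irgm2 and Iigp1 and the lowest for Gbp2 and Gbp3.

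The families were alike against 1 gene list and stood apart against others, and no difference between them was tested. Against 18 interferon-gamma targets the GBP genes had r of 0.32 to 0.94 (median 0.77) and the IRG genes 0.48 to 0.90 (median 0.71), and without KO replicate 4 and WT replicate 4 these were 0.34 to 0.63 and −0.080 to 0.85. Against the mean of 18 type I interferon targets, the deviations of the 4 IRG genes had r of 0.87 to 0.97 and those of the 6 GBP genes 0.14 to 0.60. Against 12 macrophage markers the GBP genes had r of 0.53 (Gbp6) to 0.95 (Gbp7), and the IRG genes −0.18 to 0.17. Without the 2 tumours farthest from the median of each list, the IRG genes had r of 0.19 (Igtp) to 0.98 with the type I interferon targets (KO replicate 4 and WT replicate 3 left out), and the GBP genes −0.81 to −0.45. The GBP genes had r of 0.017 (Gbp6) to 0.93 with the macrophage markers (WT replicates 3 and 4 left out), and the IRG genes −0.50 to −0.29. Acinar markers varied with the IRG genes too, at r of 0.67 to 0.83 over the 8 tumours, against −0.18 to 0.41 for the GBP genes. Without KO replicate 1 and WT replicate 2 these were 0.71 to 0.93 and 0.085 to 0.79. For markers of T and NK cells the values were 0.63 to 0.78 against −0.18 to 0.29, and without KO replicate 3 and WT replicate 2 they overlapped, at 0.51 to 0.65 and 0.33 to 0.66. With 10 epithelial markers r was −0.84 to −0.56 for the GBP genes and −0.48 to −0.050 for the IRG genes. Without WT replicates 2 and 4 the order turned, to −0.65 to −0.34 and −0.89 to −0.64. The part of these cells in the pattern was not tested.

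**Figure D5:**
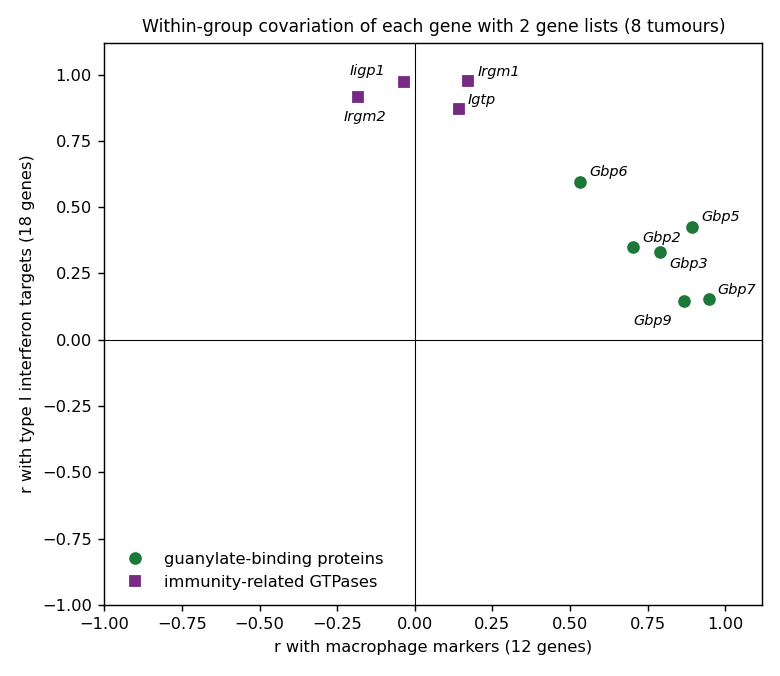
Pearson r of each gene's deviations from the group mean with those of 12 macrophage markers (horizontal) and of 18 type I interferon targets (vertical), over 8 tumours. The 4 IRG genes lie at 0.87 or more on the vertical axis and the 6 GBP genes at 0.53 or more on the horizontal axis.

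Of 15 other GBP, IRG and related genes in the table, 12 were tested, and 4 were called higher, 0 lower and 8 not called (median log2 fold change 0.74). Ifi47 (also called Irgd) was at 24.1 ± 6.44 against 10.2 ± 2.62 CPM, without overlap. Gbp8 was low in KO replicate 2, at 2.32 CPM, below all controls, and at 9.83 CPM or more in the other tumours labelled KO. Gm12250 (Irgb10, which attacks bacterial membranes) had a log2 fold change of 1.81 ± 0.42, Gbp8 one of 1.61 ± 0.45 and Gvin1, a very large interferon-inducible GTPase, one of 0.97 ± 0.27 (edgeR adjusted p = 0.0182, 0.0341 and 0.0324). Gbp4, Gbp10 and Gbp11, neighbours of Gbp6 and Gbp9 in the family, were not called, at 0.37, 0.098 and −0.39. Irgq, an IRG relative that interferon does not induce, was at 50.8 ± 1.66 against 56.7 ± 3.35 CPM, with every tumour labelled KO below every control, and was not called (edgeR adjusted p = 0.125). Tgtp1 and Tgtp2 are near-identical copies with at most 0.838 CPM in any tumour, so their values are uncertain.

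Upstream, several signalling genes of the interferon-gamma pathway were higher, while its ligand was barely detected. Of 12 genes listed, 11 were tested, of which 7 were called higher and 0 lower (median log2 fold change 0.45). Ifng itself had 1 count in KO replicate 1, 2 counts in WT replicate 2 and 0 in the other tumours, too few for a comparison. Irf8, a transcription factor of myeloid cells, had a log2 fold change of 0.74 ± 0.12, the kinase gene Jak1 one of 0.45 ± 0.092, the phosphatase gene Ptpn6 one of 0.72 ± 0.15 and Irf1, a direct activator of GBP promoters, one of 0.45 ± 0.093.

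Of 18 other targets of interferon-gamma tested, 10 were called higher and 0 lower, with a median log2 fold change of 0.76. The chemokine gene Cxcl10 rose 4.39-fold, from 3.75 ± 0.54 to 16.4 ± 4.36 CPM (SD, n = 4 each, edgeR adjusted p = 0.00440). The immunoproteasome genes Psmb8 and Psmb10 rose by 0.76 and 0.77 on the log2 scale and the peptide transporter gene Tap1 by 0.83.

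Of 12 signalling genes of type I and type III interferons 8 were called higher and 1 lower (median 0.60), among them Ifnar2, a subunit of the type I receptor (0.85 ± 0.13), Stat2 (0.73 ± 0.14) and Il10rb, shared by the type III and interleukin-10 receptors (0.86 ± 0.16). Ifnlr1, the receptor subunit of the epithelial type III interferons, was the one that fell, by 2.51-fold, from 17.8 ± 3.68 to 7.05 ± 1.47 CPM. Of 18 type I targets 13 were called higher and 0 lower (median 1.35). Mx1, itself a dynamin-like antiviral GTPase, had a log2 fold change of 1.87 ± 0.39, Ifit2 one of 1.76 ± 0.36, and the RNA sensor genes Ddx58 and Ifih1 had 1.14 ± 0.24 and 0.70 ± 0.11. The signalling lists share members, Jak1 among them, and no test compared the lists.

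Calls among the machinery that GBPs and IRGs work with stand beside 21.8% of all tested genes called and 11.1% called higher. No contrast with that share was tested. Of 11 genes of the autophagy conjugation system, which places these GTPases on vacuoles, 3 were called higher and 0 lower (median log2 fold change 0.12): Gabarap (0.38 ± 0.089), Atg3 (0.37 ± 0.087) and Atg7 (0.44 ± 0.11). In this list 3 genes had every tumour labelled KO above every control and 3 had every one below, the latter not called. Of all tested genes 25.5% had no overlap in either direction. Of 11 inflammasome and pyroptosis genes 3 were called higher and 0 lower (median 0.35): the adaptor gene Pycard (0.87 ± 0.11), the pore gene Gsdmd (0.37 ± 0.10) and Casp1 (0.64 ± 0.18). Of 6 enzymes that prenylate and process proteins such as Gbp2, edgeR called 0, with 2 at an unadjusted p under 0.05: Pggt1b at 0.27 ± 0.097 and Icmt at −0.21 ± 0.084. Over all these lists 47 of 101 genes in the table were called, with Ifnlr1 lower, beside 21.8% of all tested genes. Some of the 101, Ifng among them, were too low to be tested. The count of 47 became 25 without KO replicate 2, 29 without KO replicate 1 and 31 without WT replicate 3. Over all genes the calls in those fits were 1755 of 14962, 2296 of 14891 and 2077 of 14841.

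Markers of several cell types moved with the GTPase genes. Macrophage markers were called higher in 12 of 12 cases, with log2 fold changes of 0.59 to 2.02. Pan-leukocyte markers were called higher in 7 of 8 cases, and their summed level was 3454 to 4137 CPM against 1610 to 2575 CPM. Epithelial markers were called lower in 8 of 10 cases, at 3274 to 4756 against 6346 to 8343 CPM in sum. The exact two-sided permutation p was 0.0286 for the summed level of each of these 3 lists, the smallest that 4 against 4 tumours allows (adjusted p = 0.0952 over 10 lists). Markers of T and NK cells summed to 32.2 to 62.1 against 19.8 to 40.4 CPM, with 0 of 7 tested called by edgeR and 1 at an unadjusted p under 0.05. Acinar markers ranged from 1644 to 37869 CPM in the tumours labelled KO and from 381 to 7874 CPM in those labelled WT. Fibroblast markers summed to 755 to 4209 against 403 to 1513 CPM, a ratio of means of 2.34 (exact permutation p = 0.143), with 0 of 7 called by edgeR and 3 at an unadjusted p under 0.05. B cell markers summed to 16.6 to 47.0 against 8.01 to 30.9 CPM (exact permutation p = 0.314). Dendritic cell markers summed to 245 to 356 against 220 to 462 CPM. Of these 7 markers, edgeR called 2 higher and 0 lower, and 6 had a log2 fold change above 0. Neutrophil markers summed to 12.0 to 29.1 against 13.1 to 30.0 CPM and endothelial markers to 24.6 to 31.1 against 19.9 to 37.2 CPM. No list had a marker at 0 in all tumours. With libraries scaled to the macrophage markers, 9 of the 10 genes lay below 0, from −0.91 (Gbp9) to −0.075 (Gbp2), and Iigp1 at 0.39. Gbp9 and Irgm2 were then called lower (edgeR adjusted p = 0.00135 and 0.0356). Under the same scaling 12940 of 14728 genes were called, only 68 of them higher. These 2 calls are therefore no result about the 2 genes. That scaling moved the median of all genes to −1.30, and the median of the 10 genes stood 1.15 above it. Rescaling moves all genes by a like amount, so this gap was nearly fixed in advance. It was 1.06 with library totals alone and shows nothing about macrophages. The part of these cell types in the result was not tested.

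Among 10648 other genes that averaged 3 or more on the log2 CPM scale, the 8 most like the mean standardized level of the 10 genes over the 8 tumours were Lbh, Ccdc93, Kif19a, Ankrd40, Stat2, Rnf41, Dhdh and Il21r (Pearson r of 0.983 to 0.991). By deviations from the group means they were Lbh, Smoc2, Inpp5b, Dll4, Ankrd40, Tapbp, Heg1 and Gprasp1 (r of 0.966 to 0.982). Lbh and Ankrd40 were in both sets. Stat2, a subunit of the complex that binds ISRE, was the only one of the interferon lists above among them. All were picked as the highest of 10648 correlations over 8 tumours, and no r was tested.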

How the data were processed

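RNA sequencing of 8 sorted tumour samples was analysed from 2 deposited tables. The authors' raw counts are exon tags per gene from HOMER's analyzeRepeats.pl with mm10, 1 condensed transcript a gene, plus strand, per the file headers. A second deposited table from that program holds FPKM, per the file headers. For 8 of the 10 genes (not Gbp3 and Iigp1) it lists the same transcript. FastQC 0.11.2, STAR 2.4.0k and edgeR 3.6.8 also stand in the submitters' processing notes, without roles. Whether the kit marks strand is not given in the sources used here, so antisense reads may not be separated.

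All genes were fitted in R 4.3.3 with edgeR 4.0.16 (glmQLFit, glmQLFTest, TMM, filterByExpr with a minimum count of 10 and a minimum total of 15). DESeq2 1.42.0 and limma 3.58.1 on log2(FPKM + 1) were alternatives. SE is the log2 fold change divided by the square root of F. Chi-square per degree of freedom between libraries of a group was at least 30.7, so none agreed within sampling noise. The fit was tested on simulated data.

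The members, lists, tests and alternatives were chosen with earlier results of these data known. Named were the 10 genes, Lifr, Epcam and Irf1, up to 4 called genes of smallest p per pathway list (2 where none was called) and the 8 genes most alike in pattern. Gbp2b, Gbp4, Gbp10, Gbp11, Irgq, Tgtp1, Tgtp2 and Ifng were named after their values were seen. Promoter sequences are from RefSeq (GRCm38.p6). An allele that all mice shared and 1 gene of the naming rule are not reported here.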

Additional observations from a re-analysis of the deposited data

Results flagged for a closer look

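In the tumours labelled KO, Irgm2 was at 11.3 CPM in replicate 4 while the other 3 tumours lay between 18.8 and 19.7 CPM. The gap to the nearest tumour was 0.894 of the group's range, above the 95% limit of 0.829 for 4 samples (Dixon). Of 20 groups checked (10 genes in 2 groups), this was the only one past the limit, and chance alone flags about 1 in 20. Without that tumour the Irgm2 difference was called (log2 fold change 0.73, edgeR adjusted p = 0.0286). The tumour was picked by its low Irgm2 value in the same data, so that call is no support for a difference.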

How the results depend on the processing

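All 10 genes kept a log2 fold change above 0 under every alternative in which they were tested (Gbp6 and Iigp1 did not pass the FPKM filter), except that scaling to the macrophage markers left only Iigp1 above 0. Under that scaling values were −0.075 for Gbp2, −0.10 for Gbp3, −0.14 for Gbp5, −0.15 for Gbp6, −0.28 for Gbp7, −0.91 for Gbp9, −0.082 for Igtp, −0.51 for Irgm1 and −0.74 for Irgm2. Scaling to macrophage or epithelial markers moves all genes by construction, to a median of −1.30 and 0.89, and the median of the 10 genes stood 1.15 and 1.04 above it. The 10 genes move with the rest. That these gaps stayed near 1.06, the value with library totals alone, was thus nearly fixed in advance. Of the 10 genes, the count called was 6 with TMM, 10 with epithelial scaling, 2 with macrophage scaling (both lower), 3 with library totals alone, 3 with limma on FPKM without a filter, 0 with only the +/+ controls and 1 without the most acinar tumour of each group (KO replicate 1 and WT replicate 2, chosen after seeing the data). In that last fit Igtp was called (1.18, edgeR adjusted p = 0.0413) and Gbp7 was not (0.79, edgeR adjusted p = 0.0501). Leaving out 1 tumour gave 2 to 9. With 2 control tumours fewer samples enter; otherwise the cause was not tested.

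Over all genes 3216 were called, against 11087 with epithelial scaling, 12940 with macrophage scaling, 1926 with f/+ controls, 1106 with +/+ controls, 1892 without the most acinar tumours and 1755 to 3241 without 1 tumour. Of the genes called, 900 of 4008 (22.5%) were higher with library totals and 905 of 3667 (24.7%) with limma on log2(FPKM + 1). With TMM, 1630 of the 3216 were higher. Of the pathway genes 47 were called, against 90 with epithelial scaling, 26 with f/+ controls, 13 with +/+ controls, 31 with limma on FPKM at either pseudocount, 29 without its filter, 22 without the most acinar tumours and 25 to 50 without 1 tumour. Genes of the 10 without overlap between groups numbered 3, against 9 with epithelial scaling, 0 with macrophage scaling and 3 to 9 without 1 tumour. With TMM every KO tumour was the higher for 13.1% of all tested genes. That share is not given here for the alternatives, so their counts are no result about the 10 genes. As a mean log2 level instead of a sum, dendritic cell markers were higher by 0.78 (exact permutation p = 0.0286), neutrophil markers by 0.042 and endothelial markers by 0.042, where their sums were lower.

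No paired analysis was possible because the labels give no replicate numbers, only mouse IDs, and the numbers here are in accession order. Depth limits the rare genes most: Iigp1 and Gbp6 had 19 and 21 counts in their lowest tumours.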
